A study of Mus musculus with 24 samples.

Results

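The p38 MAP kinase pathway was followed through 9 genes in retroperitoneal white adipose tissue of C57BL/6J mice, the strain of the labels (the study's methods write C57BL/6JRJ). The genes were taken by symbol from the tables of gene expression: the 4 p38 kinases Mapk14 (p38 alpha), Mapk11 (p38 beta), Mapk12 (p38 gamma) and Mapk13 (p38 delta), the kinases that activate them, Map2k3, Map2k6 and Map3k5, and the kinases that they activate, Mapkapk2 and Mapkapk3. These are 9 of the 56895 entries used, and all 9 were found. All 9 were among the 18399 genes with enough reads to be tested over the whole series.

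p38 kinases are switched on by phosphorylation. A MAP3K such as MAP3K5 (also called ASK1, a kinase held in check by thioredoxin and released by oxidative stress) phosphorylates a MAP2K, here MAP2K3 or MAP2K6, which in turn phosphorylates p38. Active p38 phosphorylates MAPKAPK2 and MAPKAPK3, kinases that control the stability and translation of cytokine mRNAs, as well as transcription factors. In adipose tissue the pathway is known for its part in inflammatory and stress signalling and, in brown and beige adipocytes, in the induction of thermogenic genes. The values here are of mRNA and say nothing of the phosphorylated state of the kinases.

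The 8 groups combined maternal diet, offspring diet and sex, with 3 mice in each. Mothers (15 per group) received, for at least 8 weeks ahead of mating and throughout gestation, AIN-93G with 1.0 IU/g of vitamin D3 (CTRL) or with 0.0 IU/g (VDD), and every mother went back to the control diet between birth and weaning. At 6 weeks of age the offspring were placed for 8 weeks on a low-fat diet, AIN-93M (LF), or on a DIO diet with 45% of its energy from fat (HF). No offspring ate a diet without vitamin D3 of its own. Single libraries are named after the column names of the tables, by group, sex and mouse number (VDD_LF_M_2310 is a VDD LF male). In 6 columns (that of VDD_HF_M_2307 among them) the name also holds the word renal, whose meaning the sources do not give, and the word is left out here. The mean log2 score of a kidney list was 1.09 to 1.87 in these 6 libraries and 0.35 to 8.95 in the others. The sources name no litters for the mice, so p-values measure the spread between these mice.

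The libraries held 13346779 to 18484346 reads assigned to genes. The adipocyte genes Adipoq (adiponectin) and Plin1 (perilipin 1) had 44740 to 109716 and 9362 to 30585 normalized reads. Skeletal muscle genes varied far more: Acta1 (muscle actin) ranged from 58.7 to 181274 and Ckm (muscle creatine kinase) from 1.28 to 165203 normalized reads. The 3 libraries with the most muscle RNA were VDD_LF_M_2310, VDD_HF_M_2307 and VDD_HF_M_2298, and the results that they moved most are also given without them. Fits without these 3 have VDD_HF_M_2308 as the only VDD HF male, so only log2 differences are given for such fits. One library, VDD_LF_F_2303, held kidney RNA (1937 normalized reads of Umod, against a median of 0). The mean log2 score of an adrenal list was highest in CTRL_HF_F_2292 (5.75), with 12775 normalized reads of Cyp11a1 against a median of 28.6. Cyp11b1 and Cyp21a1 of that list were instead highest in VDD_HF_M_2307, at 11.9 and 30.6 normalized reads. The tissue that gave the Cyp11a1 reads was not tested.

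In limma, 3 of the 9 members passed the study's threshold in the comparisons averaged over the series: Map2k6 and Map3k5 with offspring diet and Mapk13 with sex. Of all genes tested, 9.44% passed it for offspring diet, 7.27% for sex and 0.103% for maternal diet. The promoters of these 3 members are shown here for the letters that precede each gene's start, from RefSeq, build GRCm38.p6. The table lists 3 promoters for Map2k6, 2 each for Mapk14 and Mapkapk3 and 1 for each of the other members, and 1 window per member was read, the one nearest to the 5′ end of the gene model. Each window runs 5′ to 3′ from 250 bases before to 50 bases after the start. Capitals mark GC boxes (GGGCGG, bound by SP1-type factors), E-boxes (CANNTG) and nuclear receptor half-sites (AGGTCA) on either strand, and marked stretches that touch or overlap run together.
Map2k6 promoter, chr11:110398852-110399151, plus strand: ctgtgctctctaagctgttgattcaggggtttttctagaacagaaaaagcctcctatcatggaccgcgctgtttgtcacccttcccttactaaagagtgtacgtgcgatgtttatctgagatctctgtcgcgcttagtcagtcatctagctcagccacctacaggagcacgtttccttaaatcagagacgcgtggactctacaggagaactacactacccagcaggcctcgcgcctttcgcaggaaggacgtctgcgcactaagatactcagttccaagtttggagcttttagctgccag
Map3k5 promoter, chr10:19934276-19934575, plus strand: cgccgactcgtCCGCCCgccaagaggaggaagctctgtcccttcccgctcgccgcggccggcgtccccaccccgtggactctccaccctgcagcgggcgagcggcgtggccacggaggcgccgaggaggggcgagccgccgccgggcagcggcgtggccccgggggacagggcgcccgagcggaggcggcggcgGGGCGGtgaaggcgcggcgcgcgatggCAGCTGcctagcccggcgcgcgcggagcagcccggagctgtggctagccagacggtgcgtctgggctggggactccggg
Mapk13 promoter, chr17:28769067-28769366, plus strand: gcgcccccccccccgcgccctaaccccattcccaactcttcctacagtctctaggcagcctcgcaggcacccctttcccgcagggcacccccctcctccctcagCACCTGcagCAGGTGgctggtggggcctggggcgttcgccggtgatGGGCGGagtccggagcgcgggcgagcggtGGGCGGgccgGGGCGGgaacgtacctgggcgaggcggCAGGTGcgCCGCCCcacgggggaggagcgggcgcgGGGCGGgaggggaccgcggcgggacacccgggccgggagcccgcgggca
The Map2k6 window held none of these 3 motifs and was 50% G and C, against a median of 52.7% over 32851 promoters. The Map3k5 window was 79.7% G and C with 47 CpG pairs, more CpG than in 98.6% of all promoters, and held 2 GC boxes and 1 E-box. The Mapk13 window was 78.0% G and C with 34 CpG pairs and held 5 GC boxes and 3 E-boxes. A GC box is present in 35.7% of all promoter windows, an E-box in 72.3% and the half-site in 16.3%. The TATA box (TATAAA, in 13.6% of windows) and the CRE (TGACGTCA, the ATF2 and CREB element, in 1.79%) were found in none of the 9 windows read, and the half-site only in that of Mapkapk3. These are matches of letters only, and the other listed promoters of Map2k6, Mapk14 and Mapkapk3 may hold different ones.

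Mapk14 was the leading p38 transcript in every library. Per kilobase of exon, the median over the 24 libraries was 308 normalized reads for Mapk14, 94.3 for Mapk12, 31.8 for Mapk11 and 3.87 for Mapk13. Of the summed level per kilobase of the 4 p38 genes, Mapk14 made up 54.3% to 77.4% and Mapk12 15.4% to 42.5%. The share of Mapk11 lay between 2.71% and 12.5%, and that of Mapk13 between 0.0681% and 6.11%. Mapk14 was also the steadiest member, with a highest library 1.52 times the lowest (1134 to 1725 normalized reads), while Mapk13 ranged from 0.991 to 73.7 and Map2k6 from 6.36 to 92.0.

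Of the kinases above p38, Map2k3 (median 241 per kilobase) and Map3k5 (201 per kilobase) were abundant and Map2k6 was scarce (6.96 per kilobase). Map2k6 made up 0.732% to 2.98% of the summed Map2k3 and Map2k6 level in the 12 LF libraries and 2.35% to 10.5% in the 12 HF libraries. Below p38, Mapkapk2 (median 744 per kilobase) stood well above Mapkapk3 (45.2 per kilobase), which made up 2.93% to 10.5% of the pair. Mapkapk2 was the most abundant of the 9 members per kilobase.

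The genes lie on mouse build GRCm38 as follows. Mapk12 (chr15:89130584-89140703, minus strand) and Mapk11 (chr15:89142486-89149628, minus strand) are neighbours with 1782 bases between them. Mapk14 (chr17:28691329-28748406) and Mapk13 (chr17:28769297-28780233), both on the plus strand, are 20890 bases apart. The order of the 8 groups was not alike within either pair: Mapk11 was highest in VDD HF males and Mapk12 in VDD LF males, and Mapk14 was highest in VDD HF males and Mapk13 in CTRL HF females. The sources do not say whether counting used strand, so reads of an antisense transcript cannot be told apart from those of a member.

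**Figure D1:**
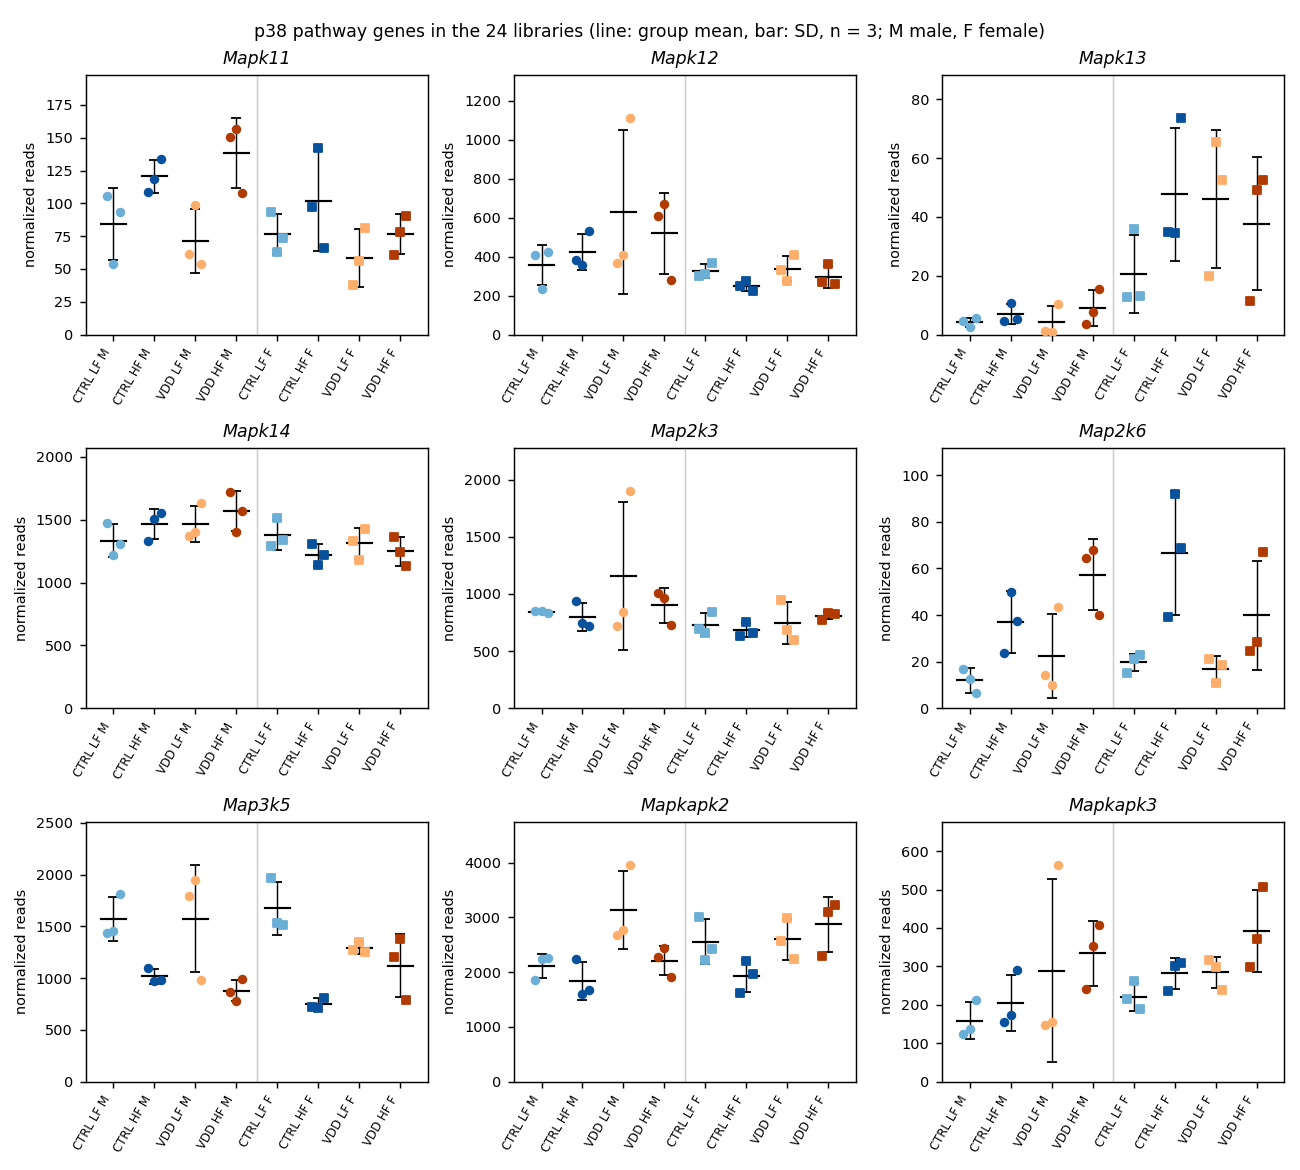
Normalized reads (vertical axis, starting at 0) of the 9 members in the 8 groups (horizontal axis), 1 panel per gene, 1 point per library, circles for males and squares for females, with the group mean as a line and the SD as a bar. Map2k6 sits higher and Map3k5 lower in the HF groups than in the LF groups of the same mothers and sex, Mapk13 is low in all males, and VDD_LF_M_2310 stands apart for Mapk12 (1112), Map2k3 (1899), Mapkapk2 (3959) and Mapkapk3 (564).

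The HF diet was first compared with the LF diet over all 24 libraries, as the average of the differences in the 4 combinations of mothers and sex. A gene was called where its Benjamini-Hochberg adjusted p in limma was under 0.01 and its fold change above 1.5 or below 0.66. Map2k6 rose and Map3k5 fell, and no other member was called, so 2 of 9 members were called against 9.44% of the 18399 genes tested. At an adjusted p under 0.05 with no limit on the fold, 3 members passed against 29.2% of genes, and 5 had an unadjusted p under 0.05 against 39.7%. The median log2 difference of the members was -0.00, as it was 0.01 over all genes tested.

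Map2k6, whose product, like that of Map2k3, is a MAP2K specific to p38, was 2.78-fold higher under HF (log2 difference 1.48, SE 0.25, 95% confidence interval 0.95 to 2.01, adjusted p = 0.000351). In males, CTRL LF libraries had 16.9, 12.5 and 6.36 normalized reads and CTRL HF libraries 23.5, 49.8 and 37.5. VDD LF males had 14.1, 9.91 and 43.3, and VDD HF males 64.5, 67.9 and 39.8. All 12 HF libraries exceeded the LF median of 16.1, and the single LF library within the HF range was the muscle-rich VDD_LF_M_2310. In females, CTRL LF libraries had 15.2, 20.9 and 22.6, CTRL HF libraries 39.0, 92.0 and 68.8, VDD LF libraries 21.3, 10.6 and 18.4, and VDD HF libraries 24.4, 28.4 and 66.9. The HF and LF females did not overlap with either kind of mother. These are low counts (7 to 96 reads before scaling), so single libraries carry a wide counting error. Without the 3 muscle-rich libraries the log2 difference was 1.51, and it stayed between 1.37 and 1.63 when any 1 library was left out. With 10 in place of 1 added to the normalized reads it was 1.10 (SE 0.19, adjusted p = 0.000344) and still called.

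Map3k5, the gene of ASK1, fell under HF to 0.616 of its LF level (log2 difference -0.70, SE 0.11, 95% confidence interval -0.93 to -0.47, adjusted p = 0.000151). CTRL LF males had 1435, 1455 and 1813 normalized reads and CTRL HF males 1101, 968 and 981. VDD LF males had 1796, 1945 and 981, and VDD HF males 862, 782 and 988. Within the males the HF and LF libraries overlapped only through VDD_LF_M_2310. Among females, CTRL LF libraries had 1972, 1529 and 1517, CTRL HF libraries 723, 708 and 812, VDD LF libraries 1268, 1354 and 1249, and VDD HF libraries 1203, 1376 and 784. The CTRL females were the farthest apart, and the VDD females overlapped. Each of the 12 HF libraries lay below the LF median of 1486, and 7 of 12 lay below every LF library. The call held in all 24 fits that left out 1 library, with log2 differences from -0.78 to -0.64. Without the 3 muscle-rich libraries the log2 difference was -0.73.

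Mapk11, the p38 beta gene, had a log2 difference of 0.58 (SE 0.16, adjusted p = 0.0114) and missed the call. Its 12 HF libraries ranged from 60.4 to 157 with a median of 108, and its 12 LF libraries from 37.6 to 106 with a median of 68.2 normalized reads. In all, 7 HF libraries lay above all LF libraries, and the ranges overlapped. Without the 3 muscle-rich libraries the log2 difference was 0.45. The adjusted p was between 0.00521 and 0.0238 in the 24 fits that left out 1 library, 4 of which called the gene.

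The kinases activated by p38 had differences of opposite sign that did not pass. Mapkapk2 was at -0.24 on the log2 scale (SE 0.09, adjusted p = 0.0623) and Mapkapk3 at 0.41 (SE 0.19, adjusted p = 0.122). Without the 3 muscle-rich libraries Mapkapk3 had a log2 difference of 0.64. In VDD_LF_M_2310 Mapkapk3 had 564 normalized reads, against 147 and 155 in the other VDD LF males. Mapk14 differed by -0.00 on the log2 scale between the diets (95% confidence interval -0.13 to 0.12), the tightest interval of the 9. Mapk12, Map2k3 and Mapk13 had log2 differences of -0.12, -0.07 and 0.67 with adjusted p of 0.649, 0.736 and 0.167. Without the 3 muscle-rich libraries Mapk13 was at 1.10.

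**Figure D2:**
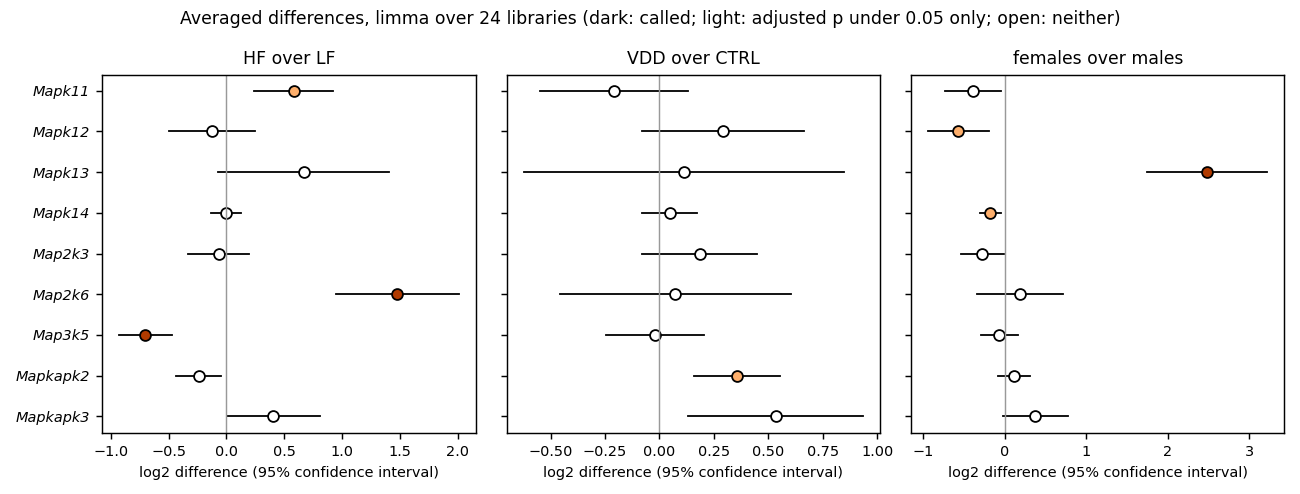
Averaged log2 differences of the 9 members (vertical axis) for HF over LF, VDD over CTRL and females over males, with 95% confidence intervals, from limma over 24 libraries. Filled dark points were called, light points passed an adjusted p under 0.05 only and open points neither. Map2k6 (1.48) and Map3k5 (-0.70) stand on opposite sides for diet, and Mapk13 (2.49) stands apart for sex.

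Macrophage genes moved with the diet too. All 10 genes of a macrophage list had an unadjusted p under 0.05, against 39.7% of all genes, and were higher under HF. Their median log2 difference was 0.73, and the mean log2 score was 8.52 to 11.2 in HF and 8.31 to 10.4 in LF libraries. With that score in the fit, the log2 differences were 1.59 for Map2k6 (adjusted p = 0.00409) and -0.69 for Map3k5 (adjusted p = 0.00409), both still called, and that of Mapkapk3 was 0.19 (adjusted p = 0.649). Brown adipocyte genes had a median log2 difference of -0.77, and with their score in the fit Map2k6 was at 1.36 (adjusted p = 0.00172) and Map3k5 at -0.66 (adjusted p = 0.000778). In bulk tissue, fewer cells of a type and less RNA per cell cannot be told apart.

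The diet was then compared within each kind of mother and sex, 3 libraries against 3. The study's DESeq2 comparisons reported genes in each of these, while limma called few or none. In CTRL LF vs. CTRL HF males, 0 of 8 tested members were called, against 0.0578% of genes, and 2 had an unadjusted p under 0.05, against 18.8% of genes. Map3k5 had a log2 fold change of -0.63 (SE 0.17, adjusted p = 0.101), Map2k6 1.57 (SE 0.45, adjusted p = 0.119) and Mapk11 0.55 (SE 0.29, adjusted p = 0.330), and the others lay between -0.23 and 0.35. Mapk13 was not tested in any comparison of males, where it had 0.991 to 15.6 normalized reads.

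In VDD LF vs. VDD HF males no member was called either, against 0.0752% of genes, and 4 of 8 had an unadjusted p under 0.05, against 25.9%. The smallest p was that of Mapk11 (log2 fold change 0.98, SE 0.31, adjusted p = 0.111), followed by Map3k5 (-0.79, SE 0.28, adjusted p = 0.148) and Map2k6 (1.55, SE 0.57, adjusted p = 0.154). VDD_LF_M_2310 carried much of the spread. Without it, Map3k5 was at -1.10 (adjusted p = 0.0108), Map2k6 at 2.14 (adjusted p = 0.0196) and Mapkapk3 was at 1.10 on the log2 scale (adjusted p = 0.0347), so that 3 of 8 members passed an adjusted p under 0.05. The share of all genes that did so was 18.1% without it and 5.35% with it.

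In CTRL LF vs. CTRL HF females limma called no gene of the series (0.0% of 16563 genes). Of the 9 members, 5 had an unadjusted p under 0.05 against 28.8% of genes, and 2 passed an adjusted p under 0.05 against 7.4%. These were Map3k5 (log2 fold change -1.18, SE 0.13, adjusted p = 0.0176) and Map2k6 (1.63, SE 0.36, adjusted p = 0.0414). Map3k5 was between -1.24 and -1.05 without any 1 library, and Map2k6 between 1.35 and 1.98. Without CTRL_LF_F_2125 the adjusted p of Map3k5 was 0.0829, and the adjusted p of Map2k6 was under 0.05 in 1 of 6 such fits. Mapk12 came next (-0.42, SE 0.14, adjusted p = 0.106).

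The last diet comparison, of females born to VDD mothers, had the smallest differences in both genes. No member had an unadjusted p under 0.05, against 5.05% of genes, with 0.0% of genes called. Map2k6 had a log2 fold change of 1.11 (SE 0.50, adjusted p = 0.837), Mapkapk3 0.44 (SE 0.23, adjusted p = 0.837) and Mapk11 0.43 (SE 0.35, adjusted p = 0.856), and the other 6 lay between -0.39 and 0.15. Map3k5 was at -0.24 here (SE 0.23, adjusted p = 0.871). Libraries VDD_HF_F_2081 and VDD_HF_F_2083 had 1203 and 1376 normalized reads of Map3k5, near the 1249 to 1354 of the VDD LF females, while VDD_HF_F_2121 had 784.

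**Figure D3:**
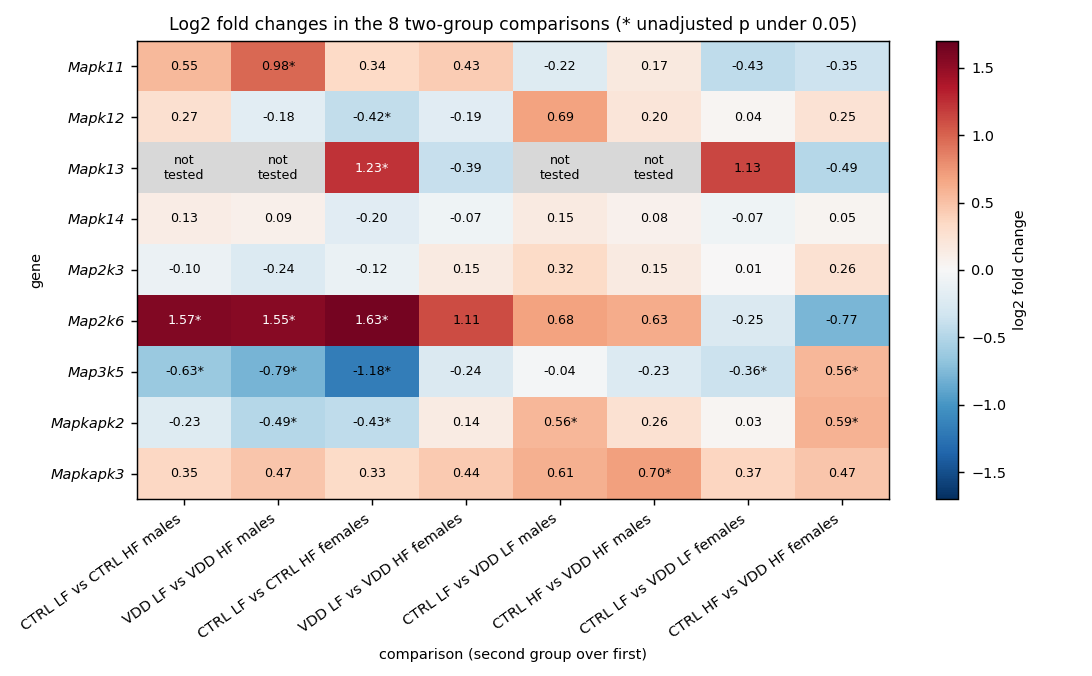
Log2 fold changes (colour and printed value, second group over first) of the 9 members (vertical axis) in the 8 two-group comparisons (horizontal axis), with an asterisk at an unadjusted p under 0.05 and grey where Mapk13 was not tested. Map2k6 is between 1.11 and 1.63 in the 4 diet comparisons, and Map3k5 runs from -1.18 to -0.24 in them.

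Map2k6 and Map3k5 also ran against each other from mouse to mouse. On deviations from the group means, which leave out diet, maternal diet and sex, Pearson's r between their log2 levels was -0.84 over 24 libraries (Spearman's rho -0.77, two-sided permutation p within groups = 0.000510, 0.0184 after adjustment over the 36 pairs of members). The 2 libraries farthest from the median deviation of Map2k6 were then left out, and r was -0.76. On the log2 levels themselves, which keep maternal diet and sex, r was -0.71 within the 12 LF libraries (rho -0.56). Within the 12 HF libraries it was -0.82 (rho -0.79). The same pattern shows in single mice: VDD_LF_M_2310 had the highest Map2k6 (43.3) and the lowest Map3k5 (981) of the LF males, and VDD_HF_F_2121 the highest Map2k6 (66.9) and lowest Map3k5 (784) of its group. It was the only one of the 36 pairs with an adjusted p under 0.05.

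**Figure D4:**
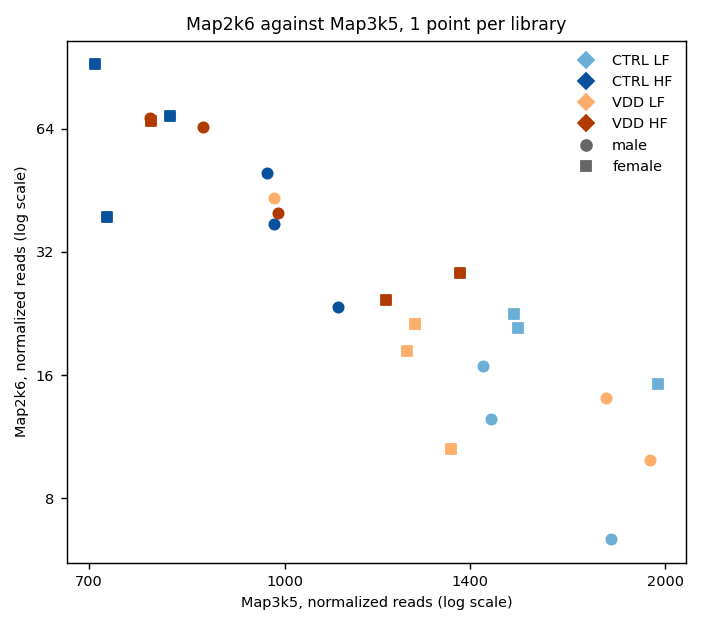
Normalized reads of Map2k6 (vertical, log scale) against those of Map3k5 (horizontal, log scale), 1 point per library, coloured by maternal and offspring diet, with circles for males and squares for females. Most HF libraries lie to the upper left and most LF libraries to the lower right. VDD_LF_M_2310 (Map3k5 981, Map2k6 43.3) lies among the HF libraries. VDD_HF_F_2081 (1203 and 24.4) and VDD_HF_F_2083 (1376 and 28.4) lie near LF libraries.

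Maternal diet was compared in the same way, as VDD minus CTRL averaged over the 4 combinations of offspring diet and sex. No member was called, against 0.103% of genes. Mapkapk2, which is the main MAPKAPK of these libraries, passed an adjusted p under 0.05 (1 of 9 members, against 4.59% of genes), and Mapkapk3 had the next smallest p, so 2 members had an unadjusted p under 0.05, against 22.9% of genes. Both were higher in VDD, and 7 of 9 members had a positive log2 difference, with a median of 0.11 against -0.01 over all genes.

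Mapkapk2 was 1.28-fold higher in VDD offspring (log2 difference 0.36, SE 0.09, 95% confidence interval 0.16 to 0.56, adjusted p = 0.0393). CTRL LF males had 1858, 2234 and 2253 normalized reads and VDD LF males 2681, 2771 and 3959, with no overlap. CTRL HF males had 2238, 1604 and 1667 and VDD HF males 2274, 2443 and 1918, which overlapped. CTRL LF females had 3011, 2217 and 2432 and VDD LF females 2562, 2994 and 2239, which overlapped, while CTRL HF females, at 1616, 2196 and 1974, all lay below VDD HF females, at 2301.7, 3101 and 3228. In all, 11 of 12 VDD libraries lay above the CTRL median of 2206. The result leans on single libraries: the adjusted p was under 0.05 in 11 of the 24 fits that left out 1 library (0.0189 to 0.0832). Without the 3 muscle-rich libraries, which are all VDD males, the log2 difference was 0.26 in place of 0.36.

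Mapkapk3 had a log2 difference of 0.53 (SE 0.19, adjusted p = 0.107). Its 12 CTRL libraries ranged from 125 to 307 and its 12 VDD libraries from 147 to 564 normalized reads, and 6 VDD libraries exceeded every CTRL library. Without VDD_LF_M_2310 the log2 difference of Mapkapk3 was 0.38. Mapk12 came next (0.29, SE 0.18, adjusted p = 0.330) and turned to -0.031 without the 3 muscle-rich libraries. Map2k6 and Map3k5, the members called for offspring diet, had log2 differences of 0.07 (95% confidence interval -0.46 to 0.60) and -0.02 (-0.25 to 0.21) for maternal diet. All 19 genes of a muscle list had a positive VDD minus CTRL difference, with a median of 2.59 on the log2 scale, but only 2 had an unadjusted p under 0.05, against 22.9% of all genes, and none was called. All 7 genes of a brown adipocyte list had a positive difference, with a median of 1.99, and 5 had an unadjusted p under 0.05, of which 2 were called. Of all genes, 0.103% were called for maternal diet. With the muscle score in the fit Mapkapk2 was at 0.33 (adjusted p = 0.0963), and with the brown adipocyte score at 0.38 (adjusted p = 0.0976).

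The 4 two-group comparisons of maternal diet gave no calls in limma among all genes tested, 0.0% in each, while the study's DESeq2 comparisons reported genes in all 4. In CTRL LF vs. VDD LF males 1 of 8 tested members had an unadjusted p under 0.05, against 6.79% of genes: Mapkapk2 (log2 fold change 0.56, SE 0.20, adjusted p = 0.683). Mapk12 followed at 0.69 (SE 0.45, adjusted p = 0.819) and Mapkapk3 at 0.61 (SE 0.53, adjusted p = 0.849). Both rested on VDD_LF_M_2310, without which Mapk12 was at 0.18 and Mapkapk3 at -0.019. In CTRL HF vs. VDD HF males 1 of 8 members passed, against 5.31% of genes: Mapkapk3 (0.70, SE 0.29, adjusted p = 0.940), ahead of Map2k6 (0.63, SE 0.35, adjusted p = 0.960) and Map3k5 (-0.23, SE 0.14, adjusted p = 0.967).

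In CTRL LF vs. VDD LF females 1 of 9 members had an unadjusted p under 0.05, against 12% of genes. This was Map3k5 (log2 fold change -0.36, SE 0.14, adjusted p = 0.403), with Mapk13 at 1.13 (SE 0.56, adjusted p = 0.444) and Mapkapk3 at 0.37 (SE 0.18, adjusted p = 0.446). In CTRL HF vs. VDD HF females the difference in Map3k5 had the other sign, 0.56 (SE 0.22, adjusted p = 0.266), and Mapkapk2 was at 0.59 (SE 0.20, adjusted p = 0.222), which made 2 of 9 members against 16.7% of genes. Map2k3 came next (0.26, SE 0.13, adjusted p = 0.368). No adjusted p of a member was under 0.05 in any of these 4 comparisons.

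Whether the response to the HF diet depended on the mother was tested as an interaction. In males 0 of 9 members had an unadjusted p under 0.05, against 4.1% of genes, with no gene called (0.0%). The smallest p-values were those of Mapkapk2 (log2 interaction -0.27, SE 0.27), Mapk12 (-0.46, SE 0.50) and Mapk11 (0.42, SE 0.46), each with an adjusted p = 1.0. In females 1 of 9 members passed, against 6.36% of genes: Map3k5, whose HF minus LF difference was higher in VDD than in CTRL females by 0.91 on the log2 scale (SE 0.31, adjusted p = 0.654). Mapkapk2 followed at 0.55 (SE 0.27, adjusted p = 0.787) and Mapk13 at -1.63 (SE 1.00, adjusted p = 0.798). None of these interactions passed the correction over all genes.

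The difference of these interactions between the sexes had an unadjusted p under 0.05 for 2 of 9 members, against 7.71% of genes, and no gene was called (0.0%). They were Map3k5 (1.08, SE 0.43, adjusted p = 0.601) and Mapkapk2 (0.82, SE 0.38, adjusted p = 0.641), with Mapk13 at -2.28 (SE 1.41, adjusted p = 0.721). For the HF response by sex 0 of 9 members passed, against 8.92% of genes and 0.0272% called, led by Mapk14 at -0.24 (SE 0.12, adjusted p = 0.587), Mapkapk2 at 0.22 (SE 0.19, adjusted p = 0.774) and Mapk11 at -0.37 (SE 0.33, adjusted p = 0.778). The VDD difference by sex passed for 1 of 9, against 6.63% of genes, with none called: Map2k6 (-1.18, SE 0.51, adjusted p = 0.739). Mapk11 (-0.37, SE 0.33, adjusted p = 0.787) and Mapk14 (-0.14, SE 0.12, adjusted p = 0.792) followed. The log2 fold changes of Map2k6 in VDD over CTRL were 0.68 (LF) and 0.63 (HF) in males and -0.25 and -0.77 in females. The 0.68 rested on VDD_LF_M_2310, without which it was 0.093 (SE 0.53, adjusted p = 0.958). The -1.18 was -0.88 (adjusted p = 0.860) without that library and -0.64 without the 3 muscle-rich libraries.

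Sex was the comparison with the largest difference of any member. Mapk13, the p38 delta gene, was 5.60-fold higher in females (log2 difference 2.49, SE 0.35, 95% confidence interval 1.75 to 3.22, adjusted p = 7.45e-05). At these low counts the fold depends on the added 1: with 10 added, the log2 difference was 1.48 (SE 0.21, adjusted p = 9.11e-05) and still called. Mapk13 was the 1 of 9 members called, against 7.27% of genes, while 3 members passed an adjusted p under 0.05, against 19.8%, and 5 an unadjusted p under 0.05, against 33%. CTRL LF, CTRL HF, VDD LF and VDD HF males had at most 5.45, 10.9, 10.5 and 15.6 normalized reads. CTRL LF females had 12.8, 35.8 and 13.1, CTRL HF females 34.9, 34.5 and 73.7, VDD LF females 20.05, 65.7 and 52.7, and VDD HF females 11.6, 49.0 and 52.5. In all, 9 of 12 females lay above every male, and the lowest females overlapped with the highest male, VDD_HF_M_2308. In the order of group means the 4 female groups (20.6 to 47.7) stood above the 4 male groups (4.15 to 8.98), and neighbours in that order, the step from VDD HF males to CTRL LF females (8.98 ± 6.03 against 20.6 ± 13.2, SD, n = 3) included, differed by less than the larger SD of the pair.

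Epithelial genes had the same direction. Of an epithelium list of 8 genes (Epcam, Cdh1, Krt8, Krt18, Krt19, Cldn3, Cldn4 and Cldn7), 7 were called higher in females, beside 7.27% of all genes called by sex. The list's mean log2 score was 3.68 to 8.60 in females and 1.85 to 6.49 in males. Epcam itself ranged from 0 to 222 normalized reads. Within the 12 females Mapk13 and that score had a Pearson r of 0.86 (Spearman's rho 0.84, permutation p = 0.00019 and 0.00133). Within the 12 males r was 0.79 (rho 0.87, permutation p = 0.00209 and 0.00042), and over these 2 relations the adjusted p-values of r were 0.00038 and 0.00209. The males are near the floor: Mapk13 had 0.991 to 15.6 normalized reads in them. In each of the CTRL LF, VDD LF and VDD HF male groups, 3 of the 8 list genes stayed under 10 reads. Without the 2 libraries farthest from the median score r was 0.76 in females and 0.80 in males. With the epithelium score in the fit the sex difference of Mapk13 was 1.00 (SE 0.34, adjusted p = 0.0864) and was no longer called. The part of epithelial cells in the difference cannot be told apart from expression per cell in these libraries. Mesothelium, adrenal and brown adipocyte scores also had higher medians in females, at 9.10, 3.33 and 8.02, against 8.18, 1.37 and 6.15 in males. Macrophage, muscle and endothelium scores had lower medians in females. The relation of Mapk13 to the mesothelium and adrenal scores was not tested.

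The other 3 p38 genes had negative differences, lower in females, and none of them was called. Mapk12 had a log2 difference of -0.57 (SE 0.18, adjusted p = 0.0295) and Mapk14 of -0.18 (SE 0.06, adjusted p = 0.0467). Mapk11 (-0.39) and Map2k3 (-0.28) had an unadjusted p under 0.05 and adjusted p-values of 0.101 and 0.133. When any 1 library was left out, Mapk11 lay between -0.46 and -0.32 (adjusted p from 0.0451 to 0.188). Map2k3 then lay between -0.34 and -0.17 (adjusted p from 0.0423 to 0.200). For Mapk14, whose 12 males ranged from 1221 to 1725 and 12 females from 1134 to 1512 normalized reads, the adjusted p was under 0.05 in 8 of the 24 fits that left out 1 library. Map2k6, Map3k5, Mapkapk2 and Mapkapk3 had log2 differences between -0.06 and 0.37 with adjusted p from 0.181 to 0.717. Macrophage genes were lower in females as well, all 10 of the list with a median log2 difference of -0.70. Of these 10, 3 were called, beside 7.27% of all genes. With the macrophage score in the fit Mapk12 was at -0.53 (adjusted p = 0.131), Mapk14 at -0.13 (adjusted p = 0.269) and Mapk13 at 2.58 (adjusted p = 0.00103, called).

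Mapk12, p38 gamma, is the isoform best known from skeletal muscle, so it was set beside muscle RNA. Males had 236 to 1112 and females 224 to 408 normalized reads. CTRL LF males had 409, 236 and 422, CTRL HF males 383, 358 and 529, VDD LF males 369, 406 and 1112 and VDD HF males 610, 668 and 281. The 3 highest libraries of Mapk12 were the 3 with the most muscle RNA, and without them the sex difference was -0.24 in place of -0.57. Over the 24 libraries Mapk12 and the mean log2 score of 19 muscle genes had a Pearson r of 0.66 (Spearman's rho 0.52, two-sided permutation p = 0.00047 and 0.00952, 0.00212 and 0.0428 after adjustment over 9 members). Without the 2 libraries farthest from the median score, VDD_LF_M_2310 and VDD_HF_M_2307, r was 0.44, and on deviations from the group means it was 0.66 (permutation p adjusted over 9 members = 0.0513). The score was unevenly spread: among the 14 libraries with a score from 3.40 to 5.68 r was -0.08 (permutation p = 0.779), and among the 10 from 7.36 to 15.6 it was 0.61 (permutation p = 0.0606). The female with the most muscle RNA did not stand out for Mapk12: VDD_LF_F_2303, with 28596 normalized reads of Acta1, had 331, against 277 and 408 in the other VDD LF females.

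Map2k3 was the other member with a relation to the muscle score (r = 0.69, rho 0.62, permutation p = 3e-05 and 0.00133, adjusted p = 0.00027 and 0.012). Its r was 0.59 without those 2 libraries, 0.69 on deviations from the group means (permutation p adjusted over 9 members = 0.0282), 0.24 among the 14 libraries of low score and 0.84 among the 10 others. VDD_LF_M_2310 had 1899 normalized reads of Map2k3, and the other 23 libraries lay between 599 and 1011. For the 7 other members r was between -0.16 and 0.41, with adjusted p-values from 0.148 to 0.865. Map2k6, Map3k5 and Mapk13 kept their calls with the muscle score in the fit, at 1.48, -0.70 and 2.49.

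**Figure D5:**
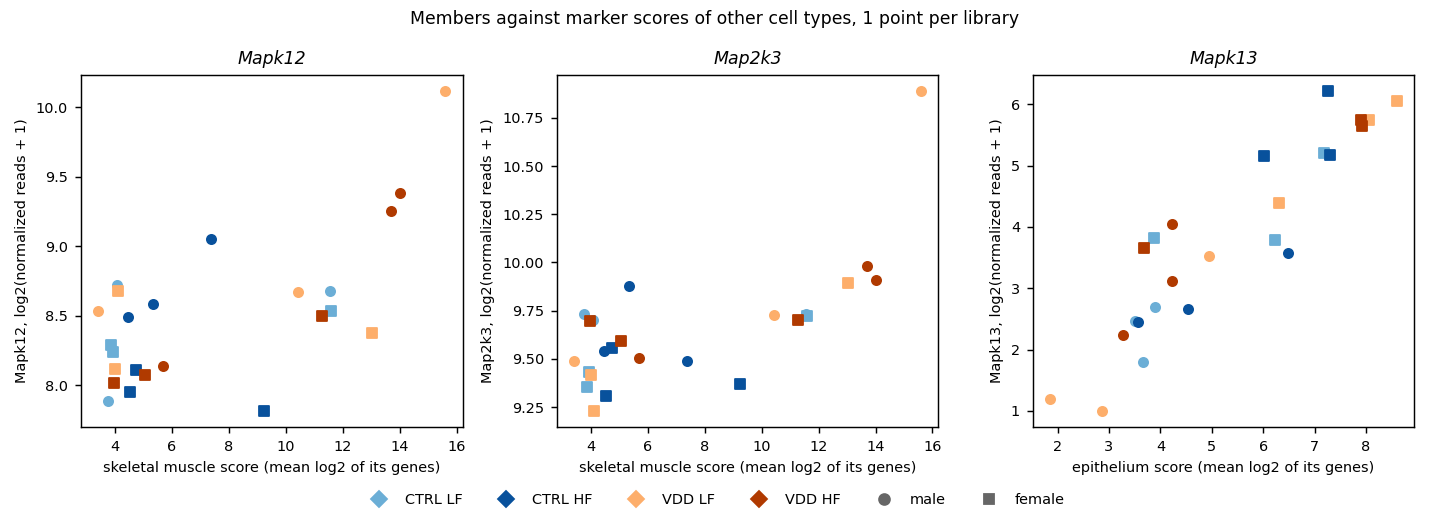
Log2(normalized reads + 1) of Mapk12 and Map2k3 against the skeletal muscle score and of Mapk13 against the epithelium score (horizontal axes, mean log2 level of the list's genes), 1 point per library, coloured by maternal and offspring diet, with circles for males and squares for females. VDD_LF_M_2310 is at the upper right of both muscle panels, and Mapk13 is higher where the epithelium score is higher within each sex.

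Genes around the members were counted from 3 wider lists, with the ERK and JNK kinases for comparison. Of 24 genes upstream of p38, 1 rose and 2 fell with the HF diet at the call, and at an adjusted p under 0.05, 6 were higher and 5 lower, beside 9.44% of all genes called and 29.2% with an adjusted p under 0.05. Gadd45g, an activator of the MAP3K MTK1, fell to 0.288 of its level (log2 difference -1.80, SE 0.28, adjusted p = 0.000157), from a median of 1444 normalized reads in LF to 436 in HF libraries. Map3k6 (ASK2, the partner of ASK1) fell as well, with a log2 difference of -1.16 (SE 0.17, adjusted p = 9.15e-05) and medians of 1208 and 442. Taok3, named after its value was seen, was the upstream gene that rose (0.66, SE 0.16, adjusted p = 0.0041). The list's median log2 difference was 0.01, the same as over all genes tested.

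Beside 9.44% of all genes called, 1 of 22 downstream genes was called and fell under HF, Ppargc1a (log2 difference -1.13, SE 0.25, adjusted p = 0.00228). It is the gene of PGC-1 alpha, a coactivator of mitochondrial and thermogenic genes. Rps6ka4 (MSK2, a histone H3 kinase) had the smallest p of the list and a difference of 0.43 (SE 0.08, adjusted p = 0.000535), under the fold limit. Of 13 genes that restrain the pathway, Glrx (glutaredoxin, which acts on ASK1) fell by 0.93 on the log2 scale (SE 0.13, adjusted p = 4.42e-05) and Dusp10, a p38 and JNK phosphatase named after its value was seen, rose by 0.83 (SE 0.22, adjusted p = 0.00835). Ppm1b, another phosphatase, was at -0.40 (SE 0.10, adjusted p = 0.00399). Of the 13 ERK and JNK kinases none was called. Mapk7 (ERK5) was at 0.48 (SE 0.10, adjusted p = 0.00161) and Rps6ka3 (RSK2) at 0.53 (SE 0.13, adjusted p = 0.00449), both under the fold limit. Median log2 differences were -0.11 downstream, -0.17 for restraint and -0.03 for ERK and JNK, beside 0.01 for all genes.

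No gene of the 4 lists was called for maternal diet, beside 0.103% of all genes. Ppargc1a (log2 difference 1.25, SE 0.25, adjusted p = 0.0133) and Cebpb (C/EBP beta, 0.70, SE 0.17, adjusted p = 0.0253), both named after their values were seen, were the downstream genes with an adjusted p under 0.05, and Taok2 (-0.25) was the upstream one. By sex, 1 restraint gene and 1 ERK or JNK kinase were called, beside 7.27% of all genes. Ptpn5 (the phosphatase STEP) was at 0 in 10 of 12 males and reached 171 normalized reads in females, with a log2 difference of 4.29 (SE 0.67, adjusted p = 0.000195) that depends on the added 1. Mapk10 (JNK3) was low throughout, at most 15.2 in males and 43.1 in females (1.53, SE 0.36, adjusted p = 0.00545). Rac1 (-0.22, adjusted p = 0.0152) and Tab2 (-0.30, adjusted p = 0.0195) led the upstream list, Mef2d (-0.34, adjusted p = 0.0184) and Zfp36l1 (0.32, adjusted p = 0.0284) the downstream list, and none of these 4 was called. Glrx (0.55, adjusted p = 0.00457) was the second of the restraint list.

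The genes whose log2 levels ran most alike each member over the 24 libraries were found by Pearson's r among the genes tested. Next to Map3k5 were Acot4 (0.917), Pck1 (0.914), the gene of a phosphoenolpyruvate carboxykinase used in glyceroneogenesis, and Slc22a15 (0.912). Map2k6 had Hist1h1d (0.855), Nrep (0.836) and Dcaf4 (0.836). Mapk13 had Spint2 (0.934), the gene of an epithelial protease inhibitor, Arhgef4 (0.925) and Egfl6 (0.923), and Mapk12 had Unc45b (0.920), a myosin chaperone of striated muscle, C2cd2 (0.899) and Trip10 (0.897). Map2k3 was next to Ipo13 (0.932), Rrp12 (0.906) and Ptp4a3 (0.896). For Mapk14 the highest values were lower, with Jak2 (0.796), Atp8a1 (0.790) and Mtmr10 (0.789). Mapk11 had XLOC_032668 (0.946), a transcript from the authors' assembly whose position the tables do not give, Ascc2 (0.937) and Sipa1 (0.905). Mapkapk2 had Eif2b4 (0.914), Vdac2 (0.910) and Mrpl15 (0.904), and Mapkapk3 had Bhlhe40 (0.843), Tmem125 (0.806) and H2afy (0.804). These values share the same libraries and diet and sex differences, and are given as a description.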

How the data were processed

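Retroperitoneal adipose tissue of 24 mice (8 groups of 3) was sequenced paired-end from stranded mRNA libraries. The authors trimmed with Sickle, mapped with STAR (2.7.0d) so that only reads with a single position remained, assembled transcripts with Cufflinks (2.2.1) and counted them with featureCounts (1.6.1). Build mm10 and these versions stand in the submitters' processing notes. The deposited values are log2(normalized reads + 1), normalized by the authors within each of 8 tables of 6 libraries and 56899 entries. Columns of the authors' own fold changes and p-values were not used.

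Whole reads were recovered from all values (100% within 0.02), summed per library and scaled jointly by the median of ratios, and 4 duplicated entries were left out. Expression was compared with limma (3.58.1, R 4.3.3, trend) within each table, and over 24 libraries with 8 group means, among genes that reached 10 normalized reads in 3 or more libraries. No count model was run, since limma on the deposited scale was the chosen test. Marker scores are means of log2(normalized reads + 1) over a list. Permutation tests used 100000 resamples and were two-sided. The scripts were tested on simulated data. Figures and summaries used Python 3.11.15.

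All 9 members are named, with the 3 of smallest p in each comparison given in full, as are the 2 genes of smallest p of each wider list for diet and sex and the 3 genes most alike each member. One gene that this rule names is not reported here. The members and lists were chosen with earlier results of these data known. Alternatives were TMM scaling, limma-voom, a pseudocount of 10, a loose filter, marker scores as covariates, leaving out the 3 libraries of highest muscle score and leaving out each library in turn.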

Additional observations from a re-analysis of the deposited data

Results flagged for a closer look

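A difference between groups in the response of a member was seen in 4 tests of an interaction at an unadjusted p under 0.05, and none passed the adjustment over all genes in limma. The HF minus LF difference of Map3k5 was higher in VDD than in CTRL females by 0.91 on the log2 scale (SE 0.31, adjusted p = 0.654), and this interaction differed between females and males by 1.08 (SE 0.43, adjusted p = 0.601). For Mapkapk2 the same difference between the sexes was 0.82 (SE 0.38, adjusted p = 0.641). The VDD minus CTRL difference of Map2k6 was lower in females than in males by 1.18, written as a log2 difference of -1.18 (SE 0.51, adjusted p = 0.739). Without VDD_LF_M_2310 it was -0.88 (adjusted p = 0.860), and without the 3 libraries with the most muscle RNA, all VDD males, -0.64.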

How the results depend on the processing

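No paired analysis was possible because the groups hold different mice and the sources name no litters for them. The columns of the tables carry mouse numbers and not the replicate numbers of the sample titles. Of the values that count called members, 371 stayed within 1.5 times under the alternatives and 5 moved. With an adjusted p under 0.05 and no limit on the fold, 2 members passed in CTRL LF vs. CTRL HF females, 1 for averaged maternal diet and 3 for averaged sex. With the epithelium score as a covariate, 0 members were called for sex, and leaving out 1 library gave 1 to 2, with 2 only without VDD_HF_M_2308. Of the tallied values of single members, 1128 kept direction and side of the threshold, 12 gained and 2 lost the threshold, and 4 changed sign. The tally does not cover all 9 members in each comparison. Without the 3 libraries of highest muscle score, Mapk12 for averaged maternal diet was at -0.031 and the interaction of Mapk11 in males at -0.10. Leaving out 1 library moved Mapkapk3 in CTRL LF vs. VDD LF males from -0.019 to 0.94 and the interaction of Mapk12 in males from -0.75 to 0.049, with the changed sign in both only without VDD_LF_M_2310. Outside the tally, leaving out 1 library also changed the sign of small averaged differences. For maternal diet these were Map3k5 (-0.066 to 0.057), Map2k6 (-0.076 to 0.18) and Mapk13 (-0.090 to 0.28). For offspring diet they were Mapk12 (-0.19 to 0.0036), Mapk14 (-0.023 to 0.015) and Map2k3 (-0.14 to 0.039). The cause of these changes was not tested. Low reads limit Mapk13 in males and Map2k6 in all groups, and 3 mice per group limit every interaction.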
